A study of Homo sapiens and Mus musculus with 69 samples.

Results

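NCI-H524 (H524), a human small cell lung cancer (SCLC) line of the NEUROD1 type, was engineered to express the human NOTCH1 intracellular domain (N1ICD) from a doxycycline-inducible lentiviral vector, and the transcriptomes of cells grown with and without doxycycline were compared across all genes. The members were chosen by their labels alone: the 3 libraries labelled H524_NOTCH1_dox (numbers 25, 26 and 27, called induced here) and the 3 labelled H524_NOTCH1_no_dox (numbers 22, 23 and 24, called uninduced), which are 6 of the 69 libraries of the series. RNA-Seq was performed on bulk cells, and the values are log2(RPKM + 1), where RPKM is the read count scaled by transcript length and library size. Both groups carried the vector and were from cells selected for it with an antibiotic, so they differed in doxycycline and in what followed it, and no clonal derivation is stated. A further 3 groups of H524 libraries, with 3 libraries each, were used for comparison: untransduced parental cells (19, 20 and 21), and cells with a doxycycline-inducible vector for REST without (34, 35 and 36) and with (37, 38 and 39) doxycycline. The study collected adherent cells after long-term culture with doxycycline, whereas H524 cells otherwise grow in suspension, so effects of N1ICD, of doxycycline, of time in culture and of selecting adherent cells cannot be told apart from the 6 libraries. The labels give no time point, and nothing says that the 3 libraries of a group came from separate cultures, so p-values measure the spread between these libraries, which may be technical.

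Notch receptors are cleaved after a neighbouring cell presents a ligand, and the released intracellular domain enters the nucleus, where it binds RBPJ and mastermind proteins and switches on targets such as the HES and HEY repressors. In neuroendocrine (NE) SCLC the pathway is mostly silent, the cells express the atypical ligand DLL3 that acts within the same cell, and lineage factors such as NEUROD1 and INSM1 maintain a neuronal and secretory programme. REST is a repressor of neuronal genes, and NE tumour cells are known for weak display of MHC class I.

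The letters that RBPJ and the interferon-activated factors recognise are shown first, in promoters of genes that rose on induction. The 250 bases before the start of each gene, taken from RefSeq on GRCh38.p14 and read 5′ to 3′ on the strand of the gene, were searched on both strands for GTGGGAA, the core letters of an RBPJ site, and for GAAA followed after any 2 bases by GAAA, the core letters of an interferon-stimulated response element. Capitals mark the matches (TTCCCAC is GTGGGAA read from the other strand). HES1 lay at chr3:194135898-194136147 on the plus strand with a match 85 to 79 bases before the start, HES4 at chr1:1000098-1000347 on the minus strand with a match 77 to 71 bases before it, HES5 at chr1:2530264-2530513 on the minus strand with matches at 224 to 218 and 81 to 75 bases, HEYL at chr1:39639644-39639893 on the minus strand with a match at 178 to 172 bases, and IFITM1 at chr11:313790-314039 on the plus strand with a match at 40 to 31 bases.
HES1: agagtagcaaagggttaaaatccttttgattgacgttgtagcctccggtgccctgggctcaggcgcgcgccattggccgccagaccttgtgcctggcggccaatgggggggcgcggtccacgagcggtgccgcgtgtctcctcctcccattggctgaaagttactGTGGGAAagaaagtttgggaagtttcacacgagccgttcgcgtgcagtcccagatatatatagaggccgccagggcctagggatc
HES4: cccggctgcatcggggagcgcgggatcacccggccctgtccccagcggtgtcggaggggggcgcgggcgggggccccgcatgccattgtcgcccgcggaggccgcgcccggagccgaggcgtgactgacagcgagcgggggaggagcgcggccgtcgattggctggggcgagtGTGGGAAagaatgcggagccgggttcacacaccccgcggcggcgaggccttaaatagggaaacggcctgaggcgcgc
HES5: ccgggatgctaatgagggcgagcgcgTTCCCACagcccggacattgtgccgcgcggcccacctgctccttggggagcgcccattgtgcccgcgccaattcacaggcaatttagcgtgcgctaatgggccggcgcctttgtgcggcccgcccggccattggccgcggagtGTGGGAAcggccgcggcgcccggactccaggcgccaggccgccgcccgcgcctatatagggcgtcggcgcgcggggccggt
HEYL: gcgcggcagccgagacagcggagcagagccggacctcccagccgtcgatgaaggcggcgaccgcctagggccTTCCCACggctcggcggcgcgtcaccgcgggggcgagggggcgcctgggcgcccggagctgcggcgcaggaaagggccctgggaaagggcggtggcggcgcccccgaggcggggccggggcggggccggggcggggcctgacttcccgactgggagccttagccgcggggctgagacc
IFITM1: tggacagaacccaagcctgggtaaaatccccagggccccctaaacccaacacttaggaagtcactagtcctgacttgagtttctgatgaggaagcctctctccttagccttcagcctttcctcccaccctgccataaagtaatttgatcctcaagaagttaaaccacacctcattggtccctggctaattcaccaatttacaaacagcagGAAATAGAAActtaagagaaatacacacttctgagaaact
Of the 8 Notch target genes that rose, 6 had a window, and 5 of these held GTGGGAA (HES1, HES4, HES5, HEY2 and HEYL), against 5.43% of the 35116 windows in the table. The paired GAAA letters were found in 10 of the 15 windows of interferon-stimulated genes that rose, against 3.02% of all windows. These came from 9 of the 12 such genes with a window. GGAATG, the core letters of a TEAD site, was found in 3 of 12 windows of YAP and TEAD genes that rose, against 11.9% of all windows. These came from 3 of 8 such genes. The CArG box of serum response factor was found in 0 of 27 windows of 16 mesenchymal genes that rose, against 1.16%. NRARP, XAF1, STAT2 and SAMD9L held no match to the letters searched for their list. A match is a description of the letters and was not tested as a binding site. The lists hold known targets, and members that did not rise were not counted apart. These shares therefore do not tie the letters to the response here.

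Before the comparison, the libraries themselves were examined. The depth is not given, but the smallest steps between low values gave a relative library size of 0.943 to 1.51 across the 15 H524 libraries, so no library was far shallower than the rest. The induced libraries were close to each other (Pearson r over 13648 genes of 0.989 to 0.993), whereas the uninduced libraries spread more widely (0.933 to 0.966), and the SD across 3 libraries exceeded 1 for 781 genes in the uninduced and for 79 genes in the induced group. Library 23 was far above library 22 for some genes, among them GDF15 (0, 7.22 and 3.04 in libraries 22, 23 and 24), PDK4 (1.38, 8.76 and 3.67) and BST2 (0, 5.78 and 0). Library 22 was in turn high for FOSL1 (5.08, 0.36 and 0) and VGF (8.50, 5.17 and 3.94). The number of genes called was 2828 without library 23 and 2581 without library 22. Leukocyte markers were near 0, with PTPRC, CD3D, CD3E and LYZ at 0.05 or below in all 6 libraries and CD14 the 1 marker with appreciable values (4.08, 3.06 and 2.71 uninduced, 4.23, 4.32 and 3.90 induced). The summed level of the 10 leukocyte markers ranged from 2.76 to 4.30 in uninduced and from 3.95 to 4.37 in induced libraries. Endothelial markers summed to 0.28 to 0.84 and 0.97 to 1.24. Of the fibroblast markers, DCN and PDGFRA were at or near 0 in both groups (DCN at 0.15, 0.27 and 0.08 and PDGFRA at 0.01, 0.03 and 0.02 induced), although the summed level of the 7 markers went from 2.70 to 3.83 in uninduced to 12.0 to 12.6 in induced libraries through collagen genes. Levels were not compared between genes, because the gene lengths behind the RPKM values are not given.

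Induction of N1ICD was accompanied by a broad change in the transcriptome. Of 20516 genes, 13648 passed the filter on low values (at least 1 in at least 3 of the 15 H524 libraries), and 2540 of these (18.6%) were called at an adjusted p below 0.05 with a change of at least 1 on the log2 scale, using limma with Benjamini-Hochberg adjustment over all genes tested. Expression rose for 1559 genes (11.4%) and fell for 981 (7.19%). Large changes were mostly rises: 175 genes rose and 13 fell by at least 4 on the log2 scale, and 49 rose and 0 fell by at least 6. The 3 induced libraries lay above all 3 uninduced libraries for 3437 genes (25.2% of those tested) and below them for 3055 (22.4%). The filter was passed by 322 genes through the 3 induced libraries alone, and 289 of these were called higher, as had to follow for nearly all of them. A p-value of such a gene is therefore no separate support for its rise. These genes could not be tested once 1 induced library was left out, so the lists below are also counted without them, and 9.53% of the other 13326 genes rose. For 69 of the genes that rose, the table listed 0 in all 3 uninduced libraries, and no fold change is given for these. On a log2(RPKM + 1) scale changes of low genes are understated.

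**Figure D1:**
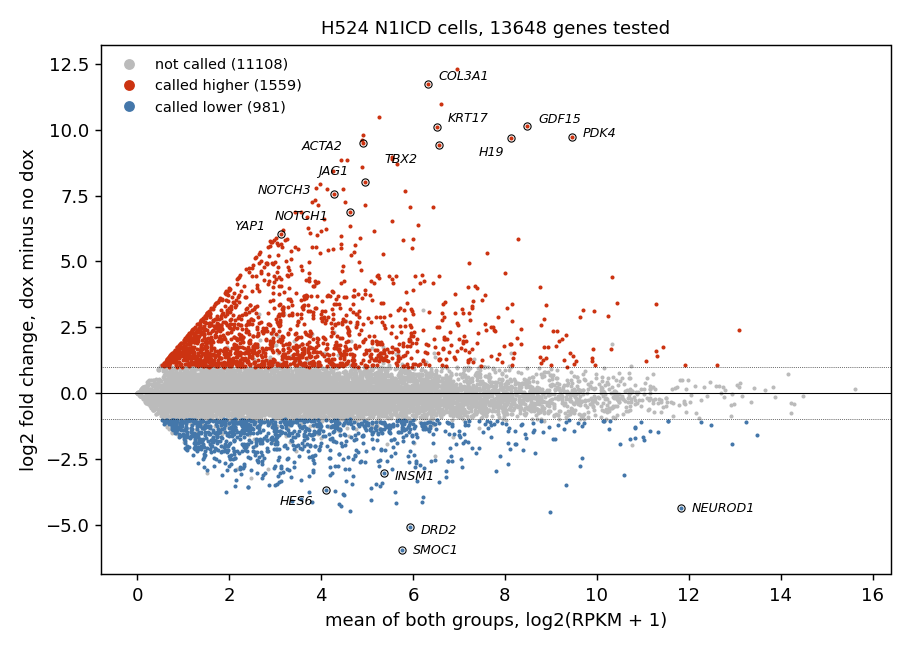
Log2 fold change (induced minus uninduced, vertical axis) against the mean of both groups in log2(RPKM + 1) (horizontal axis) for the 13648 genes tested, with 1559 genes called higher in red, 981 called lower in blue and the others in grey. Dotted lines mark changes of 1 in either direction, the steep upper edge is formed by genes at or near 0 without doxycycline, and rises reached far larger sizes than falls.

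NOTCH1 itself rose in the vector line, which checks the labels. NOTCH1 (chr9:139388885-139440500, GRCh37) was at 0.79, 1.28 and 1.52 in the uninduced libraries and at 7.58, 8.29 and 8.31 in the induced ones, a rise of 6.86 ± 0.27 (SE) on the log2 scale (adjusted p = 2.58e-10). All induced libraries lay far above the uninduced ones, whose levels were in turn slightly above the parental 0.24, 0.23 and 0.73. Reads from the N1ICD transgene and from the endogenous gene cannot be told apart in this value. The other receptors are not carried by the vector. NOTCH3 (chr19:15269849-15311806) went from 0.61, 0.33 and 0.52 to 7.94, 8.07 and 8.15 (a rise of 7.57). NOTCH2 went from 0.80, 0.84 and 1.18 to 3.17, 3.68 and 3.37 (2.46, adjusted p = 8.12e-07). Thus 3 of 3 tested receptors rose without overlap between groups, while NOTCH4 was too low to be tested. NOTCH3 was tested through the induced libraries alone.

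Among the ligands, one activating ligand rose steeply and others fell. JAG1, an activating ligand (chr20:10618332-10654647), was at 1.28, 0.98 and 0.60 without and 8.58, 9.15 and 9.16 with doxycycline, a rise of 8.01 ± 0.19 (adjusted p = 2.09e-12). DLL3, the atypical ligand that marks NE SCLC, went from 5.49, 4.21 and 4.43 to 2.75, 1.62 and 1.90 and fell by 2.62 (adjusted p = 5.65e-05). Thus the ligand that was low became abundant in all induced libraries, and DLL3 was reduced without disappearing. DLL4 (from 5.89, 4.56 and 4.28 to 3.60, 4.09 and 3.40), JAG2 (from 4.53, 4.18 and 2.84 to 2.52, 1.91 and 2.21) and DLK1, a non-canonical ligand (from 9.70, 6.69 and 5.98 to 4.62, 5.16 and 4.13), also fell, so that 1 of 7 tested ligands rose and 4 fell (list median -1.21). The fall of DLL4 was not called without library 22, 25 or 27. DLL4 and JAG2 were not lower than in parental cells, with differences from parental of 0.20 and 0.08, both not called. DLL1 and DLK2 were low and did not pass the test.

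HES and HEY genes, the canonical transcriptional repressors downstream of Notch, rose in nearly all cases. HES1 was at 0.53, 0.77 and 0.37 in the uninduced and 4.25, 5.15 and 4.59 in the induced libraries, a rise of 4.11 ± 0.23 (adjusted p = 8.6e-09). HEYL went from 1.23, 1.69 and 1.42 to 5.60, 6.32 and 6.14 (4.57 ± 0.21, adjusted p = 1.63e-09). NRARP, a feedback inhibitor of the pathway, went from 2.74, 3.49 and 3.50 to 7.36, 7.70 and 8.07 (4.47, adjusted p = 3.9e-08). None of these 3 overlapped between groups. HES4 rose by 2.95, HES5 by 2.96, HEY1 by 3.35, HEY2 by 3.19 and DTX1, a ubiquitin ligase gene, by 2.06. HES6 was the 1 member that fell, from 5.90, 5.52 and 6.45 to 2.93, 1.94 and 1.91 (by 3.70, adjusted p = 6.11e-06). HES6 is known as an inhibitor of HES1 and a promoter of neuronal differentiation. In all, 8 of 10 tested targets rose and 1 fell, with a median of 3.07 against -0.02 over all genes tested, and 6 of 8 rose without the members tested through the induced libraries alone. HES7 did not pass the test and HES2 was not tested.

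Of 19 tested components of the core machinery of the pathway, 1 rose and 2 fell, shares near those over all genes tested, with a median of 0.34. The 1 that rose was tested through the induced libraries alone, and 0 of the other 18 rose (median 0.14). Induced libraries lay wholly above the uninduced ones for 9 of the 19 and wholly below for 4, where over all genes tested the shares were 25.2% and 22.4%. MAML2, a mastermind coactivator, rose from 0.32, 0.68 and 0.23 to 3.60, 3.72 and 3.16 (3.09, adjusted p = 1.27e-08), while its paralogue MAML3 fell by 1.18 (adjusted p = 0.018, not called when 1 of libraries 23, 24, 25 or 27 was left out) and the glycosyltransferase MFNG fell by 1.70 (adjusted p = 0.00436). RBPJ, the DNA-binding partner of N1ICD, was at 3.09, 3.87 and 3.61 uninduced and 2.94, 2.94 and 3.00 induced and was not called. The protease genes ADAM10 and ADAM17, which make the first cut that releases the receptor, each differed by less than 0.5 on the log2 scale.

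**Figure D2:**
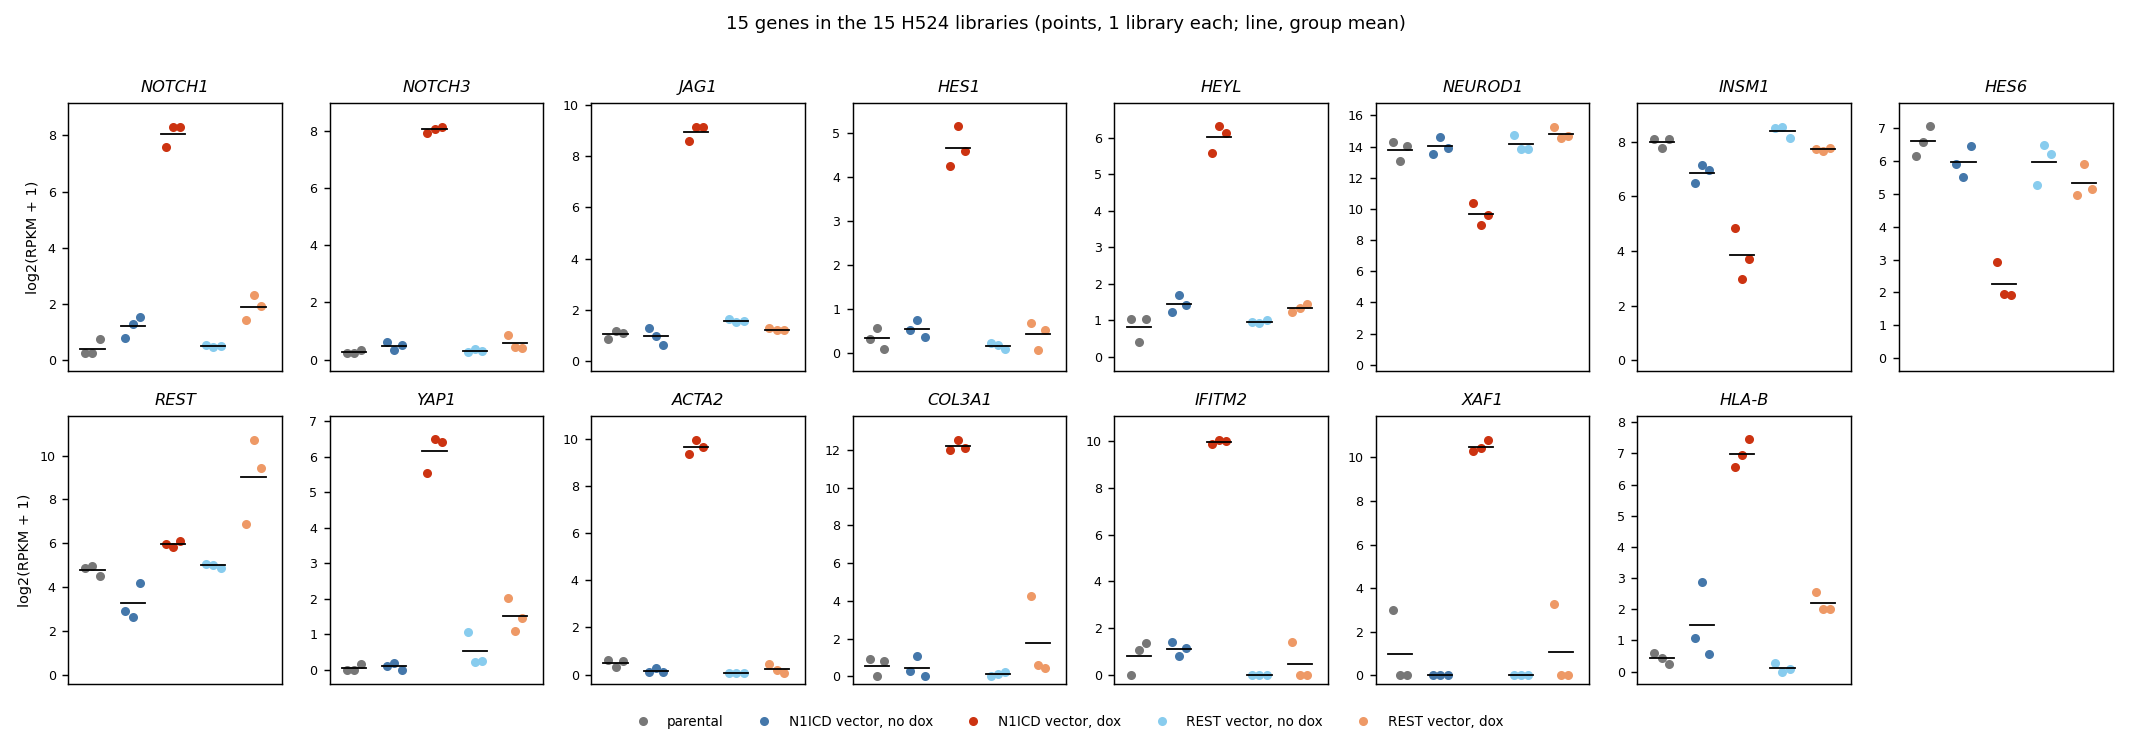
Values in log2(RPKM + 1) (vertical axes, scales differ between panels) of 15 genes in the 15 H524 libraries, 1 point per library in 5 groups with a line at the group mean. NOTCH1, NOTCH3, JAG1, HES1, HEYL, YAP1, ACTA2, COL3A1, IFITM2, XAF1 and HLA-B were high in the 3 induced N1ICD libraries, NEUROD1, INSM1 and HES6 were lowest there, and REST was higher than in the uninduced libraries but below all libraries with the REST vector and doxycycline.

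NE lineage factors fell together on induction, without being lost. NEUROD1 (chr2:182533022-182545554), the factor that defines this subtype, was at 13.49, 14.62 and 13.92 in the uninduced and 10.38, 8.94 and 9.62 in the induced libraries, a fall by 4.36 ± 0.42 on the log2 scale (adjusted p = 2.56e-06). INSM1, a zinc finger repressor common to NE tumours, went from 6.48, 7.17 and 6.98 to 4.84, 2.98 and 3.72 and fell by 3.03 (adjusted p = 1.33e-05). The groups did not overlap for either gene, and NEUROD1 kept a value above 8 in every induced library. In bulk samples, fewer cells of a type and less RNA per cell cannot be told apart. Of 19 tested NE transcription factors, 11 fell and 1 rose (median -1.82), and against parental cells 13 fell and 0 rose. The 1 rise was not called when any of several single libraries was left out. The others that fell were NEUROD2 (by 2.58), ST18 (by 2.48), NEUROD4 (by 2.36), NKX2-1 (by 2.30), SOX11 (by 2.22), POU3F2 (by 2.15), MYT1L (by 2.02), MYT1 (by 1.82) and SOX4 (by 1.64). FOXA1 was at 4.64, 5.67 and 5.58 and 4.62, 4.22 and 4.41 and missed the fold threshold.

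Genes of synapses, neurites and secretory granules followed a mixed pattern. SYT1, a synaptic calcium sensor, went from 7.96, 8.42 and 8.53 to 5.37, 5.05 and 4.99 and fell by 3.17 (adjusted p = 4.05e-07). GAP43, a growth cone protein gene, went from 6.89, 5.47 and 6.88 to 3.87, 2.55 and 2.41 and fell by 3.47 (adjusted p = 3.09e-05). Both were clearly separated between groups. The granule protein genes CHGB (by 2.60), SCG3 (by 1.77) and CHGA (by 1.16) and the diagnostic markers NCAM1 (by 1.44) and SYP (by 1.32) fell by less. CHGA was at 7.49, 6.07 and 6.89 in the uninduced, 5.89, 5.62 and 5.46 in the induced and 4.85, 4.65 and 5.28 in the parental libraries, so its difference from parental was 0.73 (not called), and the fall was not called without library 22 or 27. Of 26 tested effectors, 14 fell and 3 rose (median -1.16). Leaving out any 1 library left 10 to 14 that fell. SCG2, a granin gene, rose from 3.17, 2.93 and 1.80 to 5.95, 6.31 and 5.78 (3.38, adjusted p = 9.01e-06). PCSK1, a prohormone convertase gene, rose from 4.98, 5.33 and 5.63 to 8.18, 7.84 and 7.44 (2.51, adjusted p = 4.49e-06). CALCA, which encodes calcitonin and its related peptide, rose from 0.23, 0.10 and 0.02 to 2.59, 2.09 and 2.47 (2.26, adjusted p = 1.12e-08). CALCA was tested through the induced libraries alone, and 2 of the other 25 effectors rose, near the share over all genes. The rises of SCG2 and PCSK1 ran against the direction of the list. UCHL1 was at 8.52, 8.18 and 8.36 and 8.11, 7.92 and 8.02 and STMN2 at 3.46, 8.38 and 6.18 and 5.42, 4.33 and 4.61, the latter with uninduced libraries so far apart that the difference of -1.22 was not called (adjusted p = 0.338). Without library 22, STMN2 fell by 2.49 (adjusted p = 0.0134).

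REST, the repressor of neuronal genes, was higher with induction than in the same cells without it. It was at 2.93, 2.66 and 4.20 uninduced and 5.96, 5.85 and 6.12 induced, a rise of 2.72 ± 0.69 (adjusted p = 0.00771), with no overlap. Parental libraries stood at 4.86, 4.95 and 4.52, between the groups, and the difference of induced from parental cells was 1.20 (adjusted p = 0.166, not called). Among the corepressors of REST, RCOR2, the neural CoREST gene, fell by 2.02 (adjusted p = 1.5e-05) and KDM1A, which encodes the demethylase LSD1, fell by 1.05 (adjusted p = 0.000163), but was at -0.90 and below the fold threshold without library 24. RCOR1, RCOR3, HDAC1, HDAC2, EHMT2 and SIN3A were not called, so 1 of 9 rose and 2 fell.

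Transcription factors of the epithelial to mesenchymal transition (EMT) moved in both directions. SNAI2 was at 3.41, 0.17 and 0.81 uninduced and 6.86, 7.63 and 7.76 induced, a rise of 5.95 ± 0.59 (adjusted p = 3.25e-06). PRRX1 went from 1.30, 1.24 and 2.09 to 4.28, 4.79 and 5.31 (3.25, adjusted p = 9.92e-07). ZEB2 went from 0.91, 1.16 and 1.92 to 3.68, 4.07 and 3.83 (2.53, adjusted p = 1.34e-06). In contrast, SNAI1, a paralogue of SNAI2, fell by 3.34 from 6.00, 7.70 and 4.93 to 2.86, 3.44 and 2.30 (adjusted p = 0.000389), and ZEB1 (2.28, 2.94 and 2.82 and 1.88, 1.84 and 1.87) was not called (-0.82, adjusted p = 0.0254). ZEB1 passed both thresholds without library 22 (-1.02), narrowly with quantile normalization and with a pseudocount of 0.1, and against parental cells (-1.72). Of 6 tested EMT factors, 3 rose and 1 fell, and 3 rose and 3 fell against parental cells.

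Mesenchymal and contractile genes rose almost as a block. ACTA2 (chr10:90694831-90751096), smooth muscle actin, was at 0.09, 0.27 and 0.13 without and 9.37, 9.97 and 9.64 with doxycycline, a rise of 9.50 ± 0.17 (adjusted p = 7.76e-14). FN1, fibronectin, went from 0.64, 1.78 and 0.78 to 9.90, 10.23 and 9.96 (8.96, adjusted p = 3.62e-11). CAV1, the main protein of caveolae, went from 0.31, 0.06 and 0.16 to 5.07, 5.34 and 4.95 (4.94, adjusted p = 3.6e-12). These genes passed from near 0 to high levels in each induced library. AXL, a receptor tyrosine kinase gene typical of mesenchymal tumour cells, was listed at 0 in all uninduced libraries and reached 7.45, 7.92 and 7.94. VIM, the classical intermediate filament marker, rose less, from 5.26, 3.77 and 3.78 to 6.58, 6.83 and 7.07 (2.55, adjusted p = 0.000389), and its difference from parental cells (5.14, 6.88 and 5.45) was 1.00 and not called. Of 26 tested members, 22 rose and 1 fell (median 3.30), against 11.4% of all genes tested that rose. Of the 22, 3 were tested through the induced libraries alone, and 19 of the other 23 members rose (median 3.23). Against parental cells 22 rose, 20 of them the same genes. The 1 that fell was CDH2, N-cadherin, from 7.70, 7.28 and 7.96 to 5.26, 4.40 and 4.79 (by 2.83, adjusted p = 2.55e-06). CD44 (1.85, 0.48 and 0.03 and 2.16, 1.88 and 1.82) was called (adjusted p = 0.0256), but not when any 1 of 5 libraries was left out. S100A6, S100A10 and ANXA2 were not called.

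Epithelial genes did not fall as a group. Of 8 tested, 4 rose and 2 fell. KRT8, a simple epithelial keratin, rose from 2.18, 1.74 and 0.23 to 4.18, 3.50 and 3.76 (2.43, adjusted p = 0.000133), and ESRP1, an epithelial splicing regulator, rose from 3.76, 2.94 and 3.44 to 6.62, 5.19 and 5.59 (2.42, adjusted p = 0.00136). CLDN3 and CLDN4, tight junction genes, fell by 2.49 and 3.36. EPCAM was at 4.60, 3.13 and 3.60 and 4.17, 2.92 and 3.18 and was not called, while CDH1, E-cadherin, was below the filter in both groups (0.78, 0.05 and 0.17 and 1.49, 0.60 and 0.85).

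Matrix genes showed some of the largest rises. COL3A1 (chr2:189839099-189877472), a fibrillar collagen gene, was at 0.28, 1.06 and 0 uninduced and 11.99, 12.53 and 12.09 induced, a rise of 11.76 ± 0.73 (adjusted p = 3.12e-08). The basement membrane gene COL4A1 went from 1.64, 1.21 and 1.97 to 6.98, 7.45 and 7.36 (5.66, adjusted p = 8.18e-10). COL18A1, the precursor gene of endostatin, went from 4.62, 4.89 and 5.34 to 9.76, 10.41 and 10.65 (5.32, adjusted p = 2.92e-08). The 3 genes were separated in every library. COL6A3 and COL8A1 were listed at 0 in the uninduced libraries and reached 1.58, 2.72 and 2.54 and 1.37, 2.09 and 1.75. POSTN, periostin, was likewise listed at 0 and reached 9.69, 9.78 and 9.95. In total, 16 of 20 tested collagens and matrix genes rose and 0 fell (median 2.66), with 11 of 15 higher without the members tested through the induced libraries alone. SPARC, a matricellular gene that was already high, rose from 7.17, 9.38 and 7.84 to 12.14, 12.66 and 12.76 (4.39, adjusted p = 1.28e-06). Among integrins, the matrix receptors, 8 of 14 rose (6 of 12 without members tested through the induced libraries alone) and 0 fell, led by the fibronectin receptor subunit ITGA5, from 2.41, 3.02 and 1.74 to 9.41, 9.51 and 9.49 (7.08, adjusted p = 1.45e-09). PDGFRB, a mural cell receptor gene, rose from 0.09, 0.89 and 0.76 to 6.84, 6.96 and 6.80 (6.29, adjusted p = 8.94e-12), and LUM rose by 2.39, so 4 of 5 tested fibroblast markers rose, 2 of them tested through the induced libraries alone, while DCN and PDGFRA were not detected above 0.5. PDPN fell by 1.80. The part of other cell types in these rises was not tested beyond these markers.

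YAP1, which marks non-NE SCLC and encodes a coactivator of TEAD factors, was switched on. It was at 0.11, 0.20 and 0 uninduced and 5.55, 6.50 and 6.42 induced, a rise of 6.05 ± 0.29 (adjusted p = 2.24e-09). Its partner WWTR1 (TAZ) rose by 2.67, and the YAP target CYR61 went from 0.69, 1.20 and 0.38 to 5.88, 7.09 and 5.69 (5.47, adjusted p = 3.12e-07). TEAD1, TEAD2 and TEAD3 rose by 2.20, 2.06 and 2.27, and the pathway kinase gene LATS2 by 2.39. TEAD4 (3.25, 3.64 and 3.46 and 3.00, 3.28 and 3.37) was the 1 member of 12 that was not called. The other 11 rose, also under every library left out, and 9 rose against parental cells. The median of all 12 was 2.37. POU2F3, the factor of tuft cell-like SCLC, was not called (4.58, 0.51 and 1.49 uninduced, 4.98, 2.15 and 3.57 induced), and it was listed at 0, 0 and 0 in parental libraries.

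Growth factor signalling genes moved in part. Of 17 tested TGF-beta and BMP genes, 9 rose (8 of 15 without members tested through the induced libraries alone) and 1 fell, among them the ligand TGFB1 (2.73, from 2.73, 2.09 and 1.57 to 4.76, 4.76 and 5.04), the receptor TGFBR2 (2.23) and the signal transducer SMAD3 (2.83). TGFBI, named as a TGF-beta-induced matrix gene, fell by 2.99, from 3.99, 6.66 and 5.27 to 2.70, 2.64 and 1.62 (adjusted p = 0.000417), and its difference from parental cells was -1.11 (adjusted p = 0.0862, not called). Of 10 tested AP-1 genes, 6 rose and 0 fell, including FOS (3.69, from 3.26, 4.79 and 0.51 to 6.69, 6.73 and 6.22), ATF3 (2.60) and FOSB (2.31). FOSL1 was high in library 22 (5.08, 0.36 and 0) and was not called, and without that library it rose by 3.89 (adjusted p = 4.56e-06). Of 16 tested receptor tyrosine kinases, 5 rose and 1 fell, but 3 of those that rose were tested through the induced libraries alone, and 2 of the other 13 rose, near the share over all genes. DDR2, a collagen receptor, rose from 4.19, 6.50 and 5.36 to 10.95, 11.36 and 11.34 (5.87, adjusted p = 6.7e-07), and FLT1, a VEGF receptor, by 2.60. EGFR was listed at 0.04, 0.01 and 0.04 and 0.02, 0.02 and 0.

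MHC class I genes and the machinery that loads them rose together. HLA-B, a classical heavy chain, was at 1.07, 2.87 and 0.57 in the uninduced and 6.57, 6.96 and 7.45 in the induced libraries, a rise of 5.49 ± 0.44 (adjusted p = 3.85e-07). B2M, the invariant light chain, was already expressed and went from 6.21, 6.49 and 5.40 to 7.92, 8.17 and 8.47 (2.16, adjusted p = 7.92e-05). The immunoproteasome gene PSMB9 went from 0.49, 4.32 and 2.17 to 5.97, 6.46 and 7.14 (4.20, adjusted p = 0.000362). Library 23 was the highest of the uninduced libraries for each of these genes and still lay below all induced ones. HLA-C rose by 4.68, HLA-E by 1.83, the peptide transporter genes TAP1 and TAP2 by 1.64 and 1.85, the loading factor TAPBP by 2.21, the trimming peptidase ERAP1 by 1.56 and the transactivator NLRC5 by 1.11. Of 15 tested members, 11 rose and 0 fell (median 1.83). The general chaperones CALR, CANX and PDIA3 and the proteasome gene PSMB10 were not called. Reads of the closely related HLA genes may be shared between them. The class II transactivator CIITA stayed at 0.22, 0.25 and 0.15 with induction, and HLA-DMA was the 1 class II gene of 3 tested that rose (1.49).

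Most interferon-stimulated genes tested rose. IFITM2, a membrane protein gene that restricts viral entry, was at 1.39, 0.80 and 1.13 uninduced and 9.87, 10.06 and 10.00 induced, a rise of 8.88 ± 0.37 (adjusted p = 5.94e-10). IFITM1, its neighbour whose promoter is printed above, went from 0, 0.46 and 0.24 to 7.79, 8.04 and 8.17 (7.77, adjusted p = 2.53e-13). XAF1, a pro-apoptotic gene, was listed at 0 in all uninduced libraries and reached 10.27, 10.41 and 10.81 (adjusted p = 2.83e-07). IFITM2 and XAF1 were among the 12 largest rises once uncharacterised, microRNA and antisense genes were left out. STAT2, which transmits interferon signals, rose by 1.35 from 7.54, 7.60 and 7.36 to 8.94, 8.73 and 8.89 (adjusted p = 5.2e-05). IFIT2 and IFIT3 were listed at 0 and reached 3.03, 3.07 and 3.02 and 2.00, 2.08 and 1.99, GBP2 rose by 3.92 and ISG15 by 2.47. BST2, tetherin, was at 0, 5.78 and 0 and 7.30, 7.63 and 7.72 and rose by 5.62 (adjusted p = 0.00963). IFI6, already high (6.05, 6.66 and 5.75 and 5.88, 6.26 and 6.48), IFI44 and IFI27 were not called, and MX1, MX2, OAS1, OAS2 and IFIT1 were too low to be tested. In total, 16 of 21 tested members rose and 0 fell (median 2.13), with 11 of 16 higher without the members tested through the induced libraries alone.

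Among sensors of nucleic acids, 5 of 11 tested rose and 0 fell, but 3 of these were tested through the induced libraries alone, and 2 of the other 8 rose. IFIH1 (MDA5), a sensor of double-stranded RNA, was at 5.15, 1.32 and 2.54 and 6.68, 6.82 and 7.23 (3.91, adjusted p = 0.00133), and IRF1, an interferon regulatory factor, went from 0.83, 0.82 and 0.65 to 3.74, 3.65 and 4.49 (3.20, adjusted p = 3.45e-08). TLR3 and IFI16 were listed at 0 in the uninduced libraries and reached 2.00, 1.98 and 2.29 and 1.85, 2.39 and 2.47. TMEM173, which encodes STING, was at 0.45, 3.25 and 1.43 uninduced, 2.16, 2.67 and 2.60 induced and 2.49, 2.55 and 2.47 in parental libraries, a difference of 0.77 that was not called (adjusted p = 0.244). Without library 23, in which it was highest, TMEM173 rose by 1.54 (adjusted p = 0.000478). MB21D1, which encodes cGAS, stayed below the filter (0.81, 0.19 and 0.15 and 0.43, 0.09 and 0.23). IFNB1, interferon beta, was listed at 0, 0 and 0 uninduced and 0.74, 0 and 0.53 induced and was not tested.

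Secreted immune mediators changed in a small set. CXCL2, a neutrophil-attracting chemokine gene, rose from 0, 0.52 and 0 to 6.07, 5.06 and 6.55 (5.72, adjusted p = 2.35e-08). CSF1, the macrophage growth factor, rose from 0.24, 0.37 and 0.45 to 6.85, 7.17 and 7.10 (6.69, adjusted p = 2.58e-10). CX3CL1 (fractalkine) rose by 3.22, LIF by 2.69 and CXCL3 by 1.33, so 5 of 8 tested rose and 0 fell. Of these, 3 were tested through the induced libraries alone, and 2 of the other 5 rose. The T cell-attracting chemokines CXCL9, CXCL10 and CCL5 were at or below 0.1 in all 6 libraries. Of 17 tested checkpoint and killer cell ligand genes, 8 rose (5 of 14 without members tested through the induced libraries alone) and 0 fell, among them PVRL2 (3.01), ICAM1 (2.23), FAS (2.09), the NKG2D ligands ULBP1 (1.98) and MICB (1.61), and CD276 (B7-H3), from 4.19, 4.37 and 4.31 to 5.95, 6.43 and 6.11 (1.87, adjusted p = 7.82e-07). CD274 (PD-L1) was at 0.18, 0.68 and 0.13 and 1.46, 1.08 and 1.27, just short of the fold threshold. CD274 was called without library 23 (1.11) or 26 (1.03), with library weights (1.05) and with a pseudocount of 0.1 (2.24), and its difference from parental cells was 0.29, not called. Of 8 tested NF-kB genes, 4 rose (3 of 7 on the same basis) and 0 fell, namely TNFAIP3, NFKBIZ, RELB and NFKB2, and RELA was not called.

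**Figure D3:**
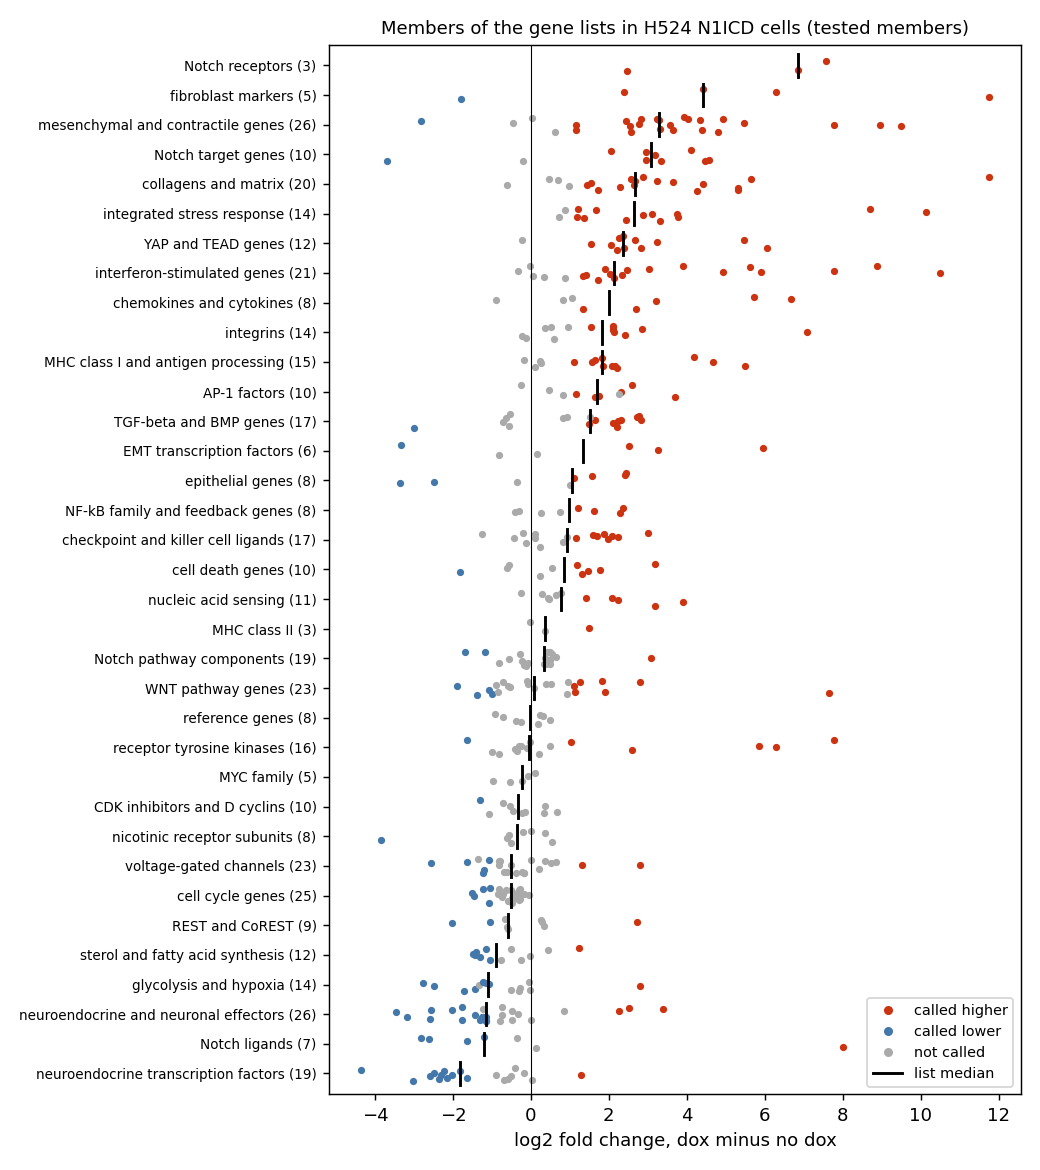
Log2 fold change (induced minus uninduced, horizontal axis) of each tested member of the gene lists (vertical axis, number of tested members in parentheses), with 1 point per gene in red for called higher, blue for called lower and grey for not called, and a bar at the list median. Mesenchymal, matrix, YAP and TEAD and interferon-stimulated genes lie mostly right of 0 and NE transcription factors mostly left, and the positions of genes listed at 0 without doxycycline depend on the pseudocount of 1.

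Genes of the integrated stress response, which ATF4 drives when translation is limited, were higher with induction, and the uninduced cells were in turn below parental cells for many of them. DDIT3 (CHOP) was at 4.97, 5.77 and 4.31 uninduced and 8.55, 8.58 and 9.24 induced, a rise of 3.78 ± 0.47 (adjusted p = 3.14e-05), but parental libraries stood at 6.85, 8.03 and 6.10. ATF4 rose by 1.19 from 6.53, 6.80 and 6.48 to 7.79, 7.77 and 7.83, and its difference from parental cells was -0.09. NUPR1, a stress-induced chromatin regulator, went from 0.72, 2.89 and 0.30 to 9.56, 10.00 and 10.43 (8.69, adjusted p = 1.31e-07). GDF15, a stress cytokine gene, went from 0, 7.22 and 3.04 to 13.31, 13.41 and 13.96 (10.14, adjusted p = 3.99e-05), and was above every other H524 library including the parental 7.30, 7.28 and 4.34. TRIB3, SESN2 and FGF21 rose by 3.74, 3.10 and 3.31. Thus 12 of 14 members rose against the uninduced cells (median 2.65) and 6 of 14 against parental cells (median 0.80), and 8 of 14 were lower in uninduced than in parental cells.

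About as many glycolysis and sterol genes fell as were not called. LDHA, lactate dehydrogenase, was at 10.57, 11.30 and 11.21 and 8.39, 8.24 and 8.15 and fell by 2.77 ± 0.41 (adjusted p = 0.000148). SLC2A1, the glucose transporter GLUT1, fell by 1.43, PGK1 by 1.16, ENO1 by 1.22 and NDRG1 by 2.49 (the last not called without library 26), so 7 of 14 glycolysis and hypoxia genes fell, with 5 to 8 when any 1 library was left out. VEGFA, the vascular growth factor and also a hypoxia gene, was the 1 member that rose, from 7.06, 9.07 and 6.22 to 10.33, 10.16 and 10.28 (2.81, adjusted p = 0.000486). Of 12 sterol and fatty acid genes, 6 fell and 1 rose. SQLE (by 1.49) and HMGCS1 (by 1.45), which act in cholesterol synthesis, were among those that fell. The median of this list was -0.904 with N1ICD and -0.899 with doxycycline in cells with the REST vector, where 2 fell (0.586% of all genes tested). The responses to the vectors differed for 0 of the 12, against 15.6% of all genes tested. The cause of the falls was not tested. The reference genes GAPDH (12.32, 12.24 and 12.35 and 11.50, 11.61 and 11.64), ACTB (11.72, 11.64 and 11.86 and 12.12, 12.23 and 12.37) and TBP (7.15, 7.11 and 6.91 and 7.16, 7.35 and 7.36) were not called, although GAPDH differed by -0.72 (adjusted p = 0.0447).

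Some proliferation genes fell against the uninduced cells, in a number that depended on library weights and on the control. MKI67 was at 6.18, 6.57 and 7.21 and 5.25, 5.32 and 5.68 and fell by 1.24 (adjusted p = 0.00106). E2F1 went from 12.51, 13.10 and 12.78 to 11.60, 11.81 and 11.73 and fell by 1.09, but by 0.93, below the fold threshold, without library 23. MKI67 was likewise at -0.96 and below the fold threshold without library 24. RRM2, CCNE2 and TYMS fell by 1.50, 1.46 and 1.06. In all, 5 of 25 cell cycle genes fell and 0 rose (median -0.52), and 12 fell against parental cells. Between 4 and 7 fell when 1 library was left out (7 without library 22), 13 with library weights and 5 under each of the other settings. The oncogene MYC (11.19, 9.99 and 9.19 and 8.77, 9.51 and 9.18) was not called, and 0 of 5 tested members of its family were, although MYC fell by 1.43 without library 24 (adjusted p = 0.0089). Of 10 CDK inhibitors and D cyclins, 1 fell (CCND3, by 1.31), which was not called with library weights (-0.94) or against parental cells (-0.61), while CDKN1A was at 2.47, 2.58 and 1.17 and 2.53, 2.95 and 2.78. CDKN1A was called higher with library weights (1.48) and against parental cells (1.16). Among cell death genes, 5 of 10 rose (3 of 8 without members tested through the induced libraries alone) and 1 fell. BCL2, the antiapoptotic gene, rose from 3.26, 2.74 and 1.95 to 5.47, 5.95 and 6.07 (3.18, adjusted p = 3.45e-05), and MCL1 by 1.32. CASP8, an initiator caspase often silent in SCLC, rose from 0.79, 0.13 and 0.11 to 2.16, 1.85 and 2.33 (1.77, adjusted p = 3.63e-06), and MLKL, the necroptosis effector, fell by 1.81.

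Drug target, channel and WNT genes gave mixed pictures. Of 12 tested drug target genes, CD276 rose and DLL3, NCAM1 and SEZ6 fell, the last not called when 1 of libraries 23, 25, 26 or 27 was left out, while SLFN11, a determinant of sensitivity to DNA damage, stayed at 0.28, 0.48 and 0.61 with induction and was not tested. CHRNA1, a nicotinic receptor subunit gene, fell by 3.84 from 4.27, 7.73 and 7.20 to 2.82, 2.33 and 2.52 (adjusted p = 0.000273) and was the 1 called member of 8. Of 23 tested voltage-gated channel genes, 5 fell and 2 rose (1 of 21 without members tested through the induced libraries alone), with SCN3A falling by 2.56. Of 23 tested WNT genes, 7 rose (6 of 22 on the same basis) and 4 fell. WNT6 rose from 0, 3.39 and 2.61 to 9.43, 9.57 and 9.98 (7.66, adjusted p = 9.36e-07) and WNT10A by 2.79, while the WNT antagonist SFRP1 fell by 1.90. AXIN2, a common readout of beta-catenin, was at 1.98, 2.93 and 2.59 and 2.34, 2.45 and 2.40 and was not called.

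With uncharacterised, microRNA, small nucleolar and antisense RNA genes left out, the 12 largest rises among genes with separated groups included those of COL3A1, XAF1, GDF15, KRT17, POSTN, PDK4, H19, ACTA2, TBX2, FN1 and IFITM2. KRT17, a stress keratin gene, went from 0.84, 2.90 and 0.66 to 11.21, 11.08 and 12.42 (10.10, adjusted p = 2.65e-09). PDK4, which restrains pyruvate entry into mitochondria, went from 1.38, 8.76 and 3.67 to 14.11, 14.62 and 14.26 (9.73, adjusted p = 5.3e-05). H19, an imprinted non-coding RNA, went from 2.16, 4.77 and 2.95 to 12.91, 13.06 and 13.01 (9.70, adjusted p = 7.86e-08). These genes have no common class in the lists. TBX2, a T-box repressor, went from 1.46, 2.53 and 1.55 to 11.03, 11.26 and 11.50 (9.42, adjusted p = 2.8e-11).

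Of the genes left out, MIR143HG, the host transcript of microRNAs typical of smooth muscle, had the largest rise of all genes tested, from 0, 2.36 and 0 to 12.84, 13.44 and 13.04 (12.32, adjusted p = 2.95e-07). MIR145, which lies within the same locus, went from 0, 2.83 and 0.58 to 11.72, 12.55 and 12.03 (10.97, adjusted p = 7.92e-07). Both were named after their values were seen, reads of the host and of the microRNA gene may be shared, and the mature microRNAs were not measured.

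Under the same rule, which left out LINC00299 and LINC00599, the 12 largest falls were smaller than the 12 largest rises. SMOC1, a matricellular gene, went from 8.79, 9.78 and 7.65 to 3.55, 1.66 and 3.11 and fell by 5.96 ± 0.56 (adjusted p = 1.7e-06). DRD2, a dopamine receptor gene, went from 8.79, 8.13 and 8.51 to 3.74, 3.23 and 3.20 and fell by 5.09 (adjusted p = 1.45e-08). GABRQ, a GABA receptor subunit gene, went from 10.21, 12.17 and 11.33 to 5.84, 7.32 and 7.03 and fell by 4.51 (adjusted p = 0.000333). Each kept a measurable level with induction. The others beside NEUROD1 were TNNT2 (by 4.47), the axonal adhesion gene CNTN2 (by 4.28), STC1 (by 4.22), VWA5B2 (by 4.16), the netrin receptor gene DCC (by 4.14), LPPR4 (by 4.04), BDKRB1 (by 4.01) and CNTNAP2 (by 3.95).

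The uninduced vector cells differed from parental H524 cells, and some results depended on which of them served as control. Between these groups 1651 genes (12.1%) were called, 674 higher (4.94%) and 977 lower (7.16%) in the uninduced vector cells. Induced cells differed from parental cells in 3543 genes (26%), with 1856 higher (13.6%) and 1687 lower (12.4%). FGF21 was at 0, 0.63 and 0.53 in uninduced and 3.15, 3.13 and 2.25 in parental libraries, and WNT6 at 0, 3.39 and 2.61 and 5.53, 4.88 and 4.17. Both were thus low in the control used here, and their differences of induced from parental cells were 0.86 and 4.80. IGF1R, a growth factor receptor gene, was at 5.34, 6.19 and 5.94 uninduced, 4.89, 5.04 and 5.07 induced and 2.08, 1.63 and 1.94 in parental cells, so it separated the vector line from the parental line with or without doxycycline. Of the 1559 genes that rose against uninduced cells, 1162 (74.5%) also rose against parental cells, and both comparisons use the same induced libraries. By list, 20 of 22 mesenchymal, 16 of 16 matrix, 11 of 11 MHC class I and 15 of 16 interferon-stimulated genes did so. The counts were 9 of 11 for YAP and TEAD genes and 6 of 12 for the integrated stress response. Members tested through the induced libraries alone are included.

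**Figure D4:**
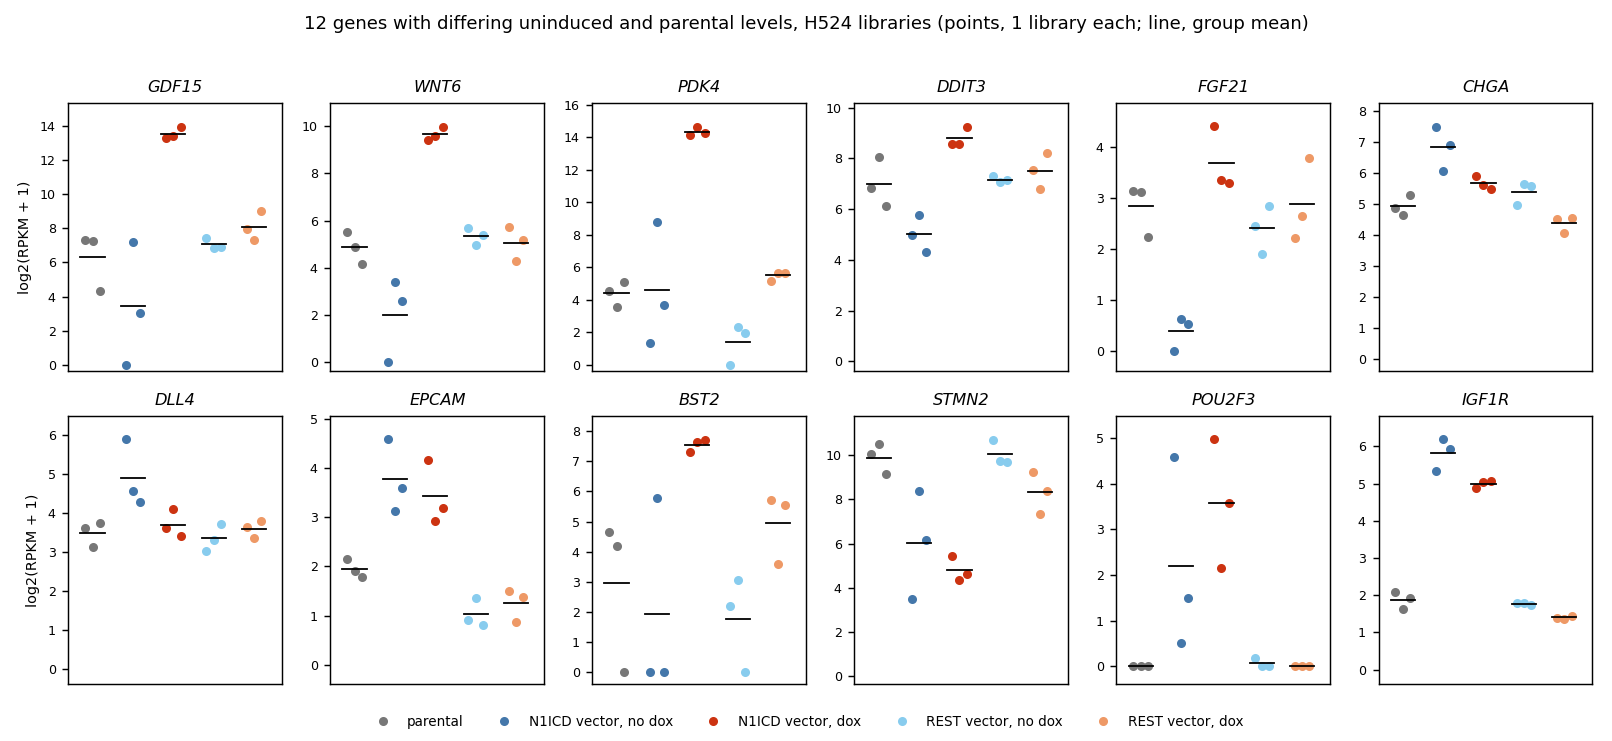
Values in log2(RPKM + 1) (vertical axes, scales differ between panels) of 12 genes in the 15 H524 libraries, 1 point per library in 5 groups with a line at the group mean, for genes picked after their values were seen. FGF21, WNT6 and DDIT3 were lower in uninduced vector than in parental cells, CHGA, DLL4 and EPCAM were higher, IGF1R set the N1ICD vector line apart with and without doxycycline, and the uninduced libraries were far apart for GDF15, PDK4, BST2, STMN2 and POU2F3.

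Cells of the same line with a doxycycline-inducible REST vector were also compared with and without doxycycline, which gives the response of the line to the drug with another insert. In that line REST rose by 4.01 (adjusted p = 0.00752) and NOTCH1 by 1.38 (adjusted p = 0.0144). Effects of doxycycline and of the insert cannot be told apart there. In all, 175 genes rose (1.28%) and 80 fell (0.586%). Of the 1559 genes that rose with N1ICD, 69 also rose with the REST vector (4.43% of the former and 39.4% of the latter), and 32 of the 981 that fell also fell (3.26% and 40%). The comparisons share no library. Responses to the 2 vectors differed for 2123 genes (15.6%), 1348 of them with a higher (9.88%) and 775 with a lower (5.68%) response to N1ICD. ACTA2 changed by 0.16 with the REST vector, JAG1 by -0.35, NEUROD1 by 0.68 and HES1 by 0.26, none of them called. GAP43 fell there by 2.10 (adjusted p = 0.0205) and SYP by 1.06 (adjusted p = 0.0303). Their differences of responses were -1.36 (adjusted p = 0.146) and -0.26 (adjusted p = 0.634), not called. Of 26 tested NE and neuronal effectors, 3 fell with the REST vector (median -0.66, against -1.16 with N1ICD). The response to N1ICD was lower for 4 of the 26 and higher for 3. Of 15 tested MHC class I genes 6 rose with the REST vector, and the response to N1ICD was higher for 6 and lower for 0. PSMB9 rose there by 3.48 (adjusted p = 0.0171), HLA-B by 2.07 (adjusted p = 0.024) and DDR2 by 2.09 (adjusted p = 0.0402). For HLA-B the difference of responses was 3.42 (adjusted p = 0.00143), and for PSMB9 it was 0.71 (adjusted p = 0.663).

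N1ICD was also induced with doxycycline in H82, another NEUROD1-type line, and in H69, an NE line of another type. These comparisons share no library with that of H524. The paper describes a longer induction for H69 than for H524 and a time course for H82. The labels give no time, so effects of line and of duration cannot be told apart. The uninduced H69 vector cells differed from parental H69 cells in a lineage factor. NEUROD1 was at 5.03, 4.77 and 3.31 in parental and at 10.6, 8.88 and 8.69 in uninduced H69 libraries, although the group means of both correlated at 0.979 over 13448 genes. The induced libraries labelled H69 correlated at 0.775 with the uninduced ones of that line, below their 0.881 with induced H524 and 0.889 with induced H82 libraries, so the values of H69 are given beside those of H82 throughout. In the 18 libraries of the 3 lines, 14756 genes were tested, and 3717 were called in H82 (25.2%) and 5658 in H69 (38.3%). Of the genes tested, 13.7% rose and 11.5% fell in H82, 19.8% and 18.5% in H69, and 10.7% and 6.75% in H524 in this fit. Of 1557 genes that rose in H524 and were tested in this fit, 802 also rose in H82 (51.5% of them, and 46.4% of the 1727 that rose there) and 799 in H69 (51.3%, and 30.1% of 2651). All 3 lines shared 498 rises (32% of those of H524), and 454 rises of H524 (29.2%) were called in neither other line. Of 966 falls, 456 were shared with H82 (47.2%, and 28.8% of 1586) and 512 with H69 (53%, and 22.2% of 2306), and 238 with both (24.6%). ACTA2 rose in all, by 9.80 in H82 and 11.30 in H69, and so did JAG1, by 6.51 and 5.10. The responses themselves differed between H524 and H82 for 2761 genes (18.7%) and between H524 and H69 for 5611 genes (38%).

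Several NE genes fell less in H524 than in the other lines. NEUROD1 fell by 4.36 in H524 but changed by -9.10 in H82, and the difference of responses was 4.73 (adjusted p = 0.000132). In H69 NEUROD1 was listed at 0 in all 3 induced libraries. SYP changed by -5.97 and -3.58 there, with differences of 4.65 (adjusted p = 5.02e-10) and 2.27 (adjusted p = 2.43e-07). Of the effectors tested in both fits, the response of H524 was higher than that of H82 for 11 and lower for 2, and higher than that of H69 for 21 and lower for 1, where over all genes tested 9.56% were higher and 9.15% lower than in H82 and 19.8% higher and 18.3% lower than in H69. For NE transcription factors, 2 were higher and 3 lower than in H82, and 12 higher and 0 lower than in H69. CDH2 fell in H524 but changed by 2.40 in H82 and 2.61 in H69, and TGFBI by 3.34 and 3.56, so both went the opposite way. Opposite calls were few among the rises, with 37 of 1557 (2.38%) lower in H82 and 153 (9.83%) lower in H69. CXCL2 changed by 0.95 in H69 (difference from H524 of 4.77, adjusted p = 7.15e-06), and in H82 it was listed at 0 in all 6 libraries. PCSK1, which rose in H524, changed by 5.99 in H82 and -7.71 in H69.

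**Figure D5:**
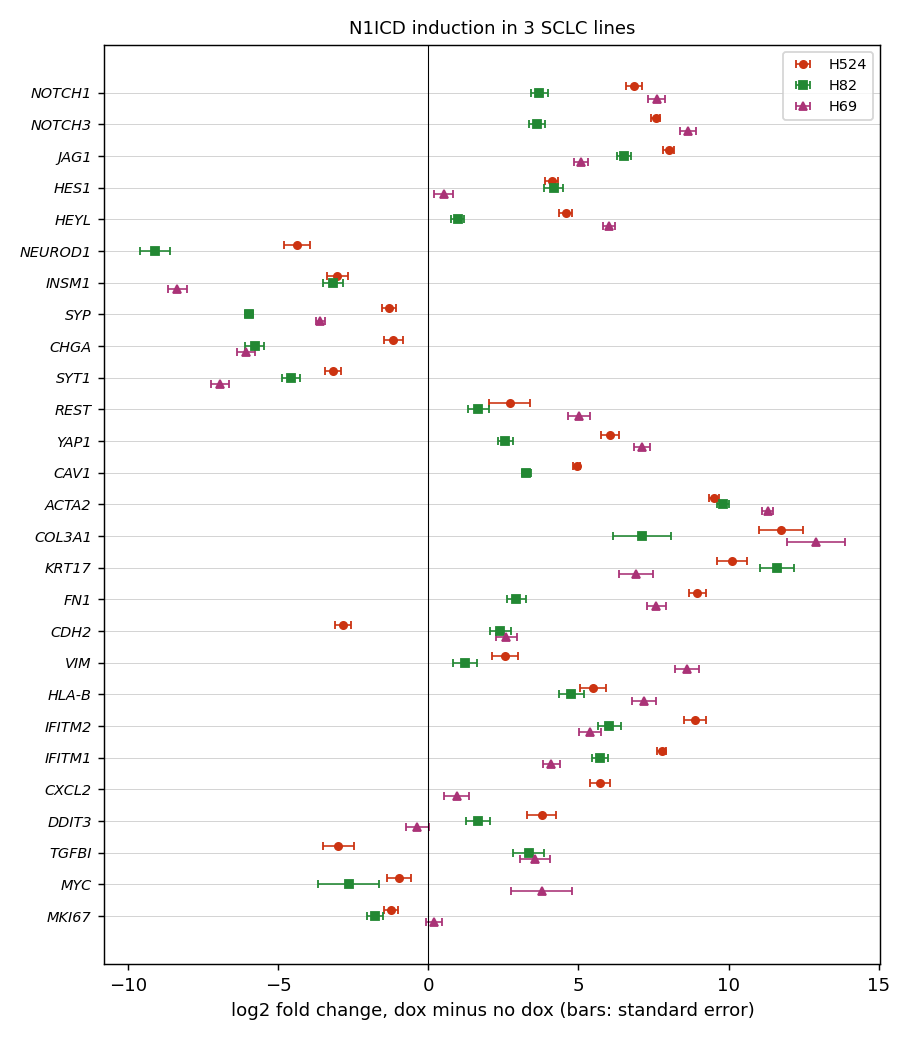
Log2 fold change with N1ICD induction (doxycycline minus none, horizontal axis, bars are standard errors, 3 libraries per group) of 27 genes (vertical axis) in H524, H82 and H69, with no point where a group was listed at 0 in all its libraries. NOTCH1, NOTCH3, JAG1, ACTA2, COL3A1 and HLA-B lie right of 0 in all 3 lines, NEUROD1 lies nearer to 0 in H524 than in H82, and CDH2 and TGFBI lie left of 0 in H524 and right of 0 in the other lines.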

How the data were processed

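The deposited human table holds log2(RPKM + 1) values of 20516 genes in 60 libraries. The authors trimmed reads with Cutadapt, aligned them to hg19 with STAR, counted with RSEM, and scaled by TMM in edgeR before computing RPKM (versions are not given in the sources used here). The study tested its counts with voom, whereas only the log2 values were analysed here, and intervals based on depth cannot be given. Genes at 1 or more in at least 3 of the 15 H524 libraries were fitted with limma 3.58.1 (R 4.3.3) using an intensity trend, with 5 groups of 3 libraries and no covariate. A gene was called at a Benjamini-Hochberg adjusted p below 0.05 and a change of at least 1. Differences of responses were contrasts in the same fit or, between lines, in a fit of 18 libraries. An exact permutation test of 3 against 3 libraries could not go below 0.1 and was not used. The fits were tested on simulated data.

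Genes named were the 12 largest rises and falls with separated groups and a mean of at least 3 in the higher group (uncharacterised, antisense and small RNA genes left out), chosen anchor genes, up to 4 called members per direction of each list, and 6 genes per direction for each difference of responses. Further list members were named after their values were seen. The libraries compared and the 39 lists were chosen with earlier results of these data known. Settings varied were the filter, pseudocount, scaling, variance model, libraries and control. Figures were drawn with matplotlib 3.10.9 in Python 3.11.15. The mouse table of the series was not used here. A few list members and named genes are not reported here, although the counts include them.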

Additional observations from a re-analysis of the deposited data

Results flagged for a closer look

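Responses to doxycycline that differed between vectors or lines by the test of the difference itself (limma, Benjamini-Hochberg adjusted p below 0.05 and a difference of at least 1) are given here as differences on the log2(RPKM + 1) scale, and their causes were not tested. Against the REST vector in the same line, 2123 genes differed. The response to N1ICD was higher by 10.13 for COL3A1, 9.78 for POSTN, 9.72 for KRT17, 9.41 for XAF1, 9.34 for ACTA2 and 9.10 for GDF15. It was lower for SMOC1 (-6.45), GABRQ (-5.60), HEPACAM2 (-5.31), C21orf90 (-5.19), NEUROD1 (-5.04) and HPN (-4.99). POSTN and XAF1 were listed at 0 in all uninduced H524 libraries, so their differences depend on the pseudocount.

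Against H82, 2761 genes differed. H524 was higher for XAF1 (9.99), POSTN (9.06), APOC1 (7.52), IL17B (7.39), MSN (7.03) and COX4I2 (6.74). It was lower for MEST (-7.86), TNNT2 (-7.24), SIAH2 (-7.01), VSNL1 (-6.99), TGFBI (-6.33) and NOV (-6.14). POSTN and VSNL1 were listed at 0 in the uninduced H82 libraries.

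Against the libraries labelled H69, whose uninduced vector cells differed from parental cells in NEUROD1, 5611 genes differed. H524 was higher for H19 (14.27), GDF15 (13.64), TMEM176A (12.61), ESRP1 (10.91), WNT6 (10.33) and PCSK1 (10.22). It was lower for LPPR4 (-7.85), FSTL1 (-7.60), VSNL1 (-7.44), SCN3A (-7.30), SPARC (-6.62) and TGFBI (-6.55), and VSNL1 was listed at 0 in the uninduced H69 libraries.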

How the results depend on the processing

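Of 182 named genes called, 115 were tested under every setting and kept the call, 26 kept it where tested but were not tested under at least 1 setting, and 41 lost or reversed it under at least 1: 18 when 1 library was left out, 16 under another setting and 27 lost or reversed it with parental cells as control. The 2540 genes called became 2508 without the filter, 3021 with a pseudocount of 0.1, 2539 without the variance trend, 3034 with library weights (whose estimation stopped before convergence), 2318 with the compared groups alone, 3543 against parental cells and 4408 without a minimum fold change. Quantile normalization and median centring moved the median of all genes to -0.13, and the share of calls that were higher from 61.4% to 53.2% and 54.1%. With 1 library left out, 2023 to 2828 genes were called, 1435 to 2579 for the difference from the REST vector (1435 without library 26 or 27), 2408 to 3059 for that from H82 and 5305 to 6120 for that from H69. Against parental cells the direction reversed for C21orf90 (0.55), CHGA (0.73), DLL4 (0.20), EPCAM (1.47), HEPACAM2 (0.35), JAG2 (0.085) and TWIST1 (-1.26), and the cause was not tested. List counts against parental cells were added after seeing the data. No paired analysis was possible because the library numbers of the groups compared are not shared. Depth is not given, and groups of 3 libraries limit the precision of every value.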
